A study of Mus musculus with 6 samples.

Results

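Interferon-stimulated genes were followed in the hippocampus of C57BL/6 J mice after knockdown of hepaCAM, a cell adhesion molecule of astrocytes. The 34 genes are a list of symbols chosen with earlier results of these data known, so counts over the list are not independent of the data. All 34 were found among the 29872 genes of the deposited RPKM values (reads scaled to gene length and library size). For the 3 libraries named shHepaCAM, a short hairpin RNA against Hepacam was brought into CA1 of both hippocampi by adeno-associated virus (AAV). The other 3 libraries, named shControl, have the genotype label WT, and whether those animals received a vector is not said, nor is any age. Separate animals are not named for the libraries either, so each p-value reflects spread among libraries that may be technical. Values below are listed in the order of replicates 1, 2 and 3.

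Interferons are secreted proteins that put cells on guard against infection. Type I interferons act through Stat2 and Irf9, which bind a promoter element called the interferon-stimulated response element (ISRE), and they induce the Ifit and Oas families and Isg15. Interferon gamma, made mainly by T and NK cells, acts through a STAT dimer that binds the gamma-activated site (GAS), and it induces the factor Irf1 and the guanylate-binding and immunity-related GTPases (Gbp, Irgm1, Igtp). The separation is not strict, since many of these genes respond to both kinds of interferon. In the brain, microglia, astrocytes and endothelial cells can all express them.

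Both elements can be searched as letters in promoters, and 12 stretches are shown because the results below compare these families. Promoter sequences from RefSeq (build GRCm38.p6) were matched by symbol for 26 of the 34 genes. Each runs from 250 bases before to 50 bases after a transcription start. The ISRE was searched as GAAA, any 2 bases and GAAA again, and the GAS as TTCNNNGAA, each on both strands. Capitals mark every match to the motif named with the group, and all 12 stretches lie before the start. The first 5 are type I targets and Rsad2, with ISRE matches in capitals.
Isg15 (chr4:156200856-156200915, minus strand): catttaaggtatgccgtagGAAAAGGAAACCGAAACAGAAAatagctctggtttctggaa
Ifit1 (chr19:34640769-34640828, plus strand): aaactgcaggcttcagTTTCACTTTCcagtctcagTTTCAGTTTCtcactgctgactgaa
Ifit3 (chr19:34583365-34583424, plus strand): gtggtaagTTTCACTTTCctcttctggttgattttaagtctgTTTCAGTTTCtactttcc
Oas1a (chr5:120907526-120907585, minus strand): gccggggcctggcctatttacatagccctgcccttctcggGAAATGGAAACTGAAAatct
Rsad2 (chr12:26456538-26456597, minus strand): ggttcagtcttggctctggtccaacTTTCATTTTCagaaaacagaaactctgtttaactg
The next 5 are the GTPases among the gamma targets, again with ISRE matches in capitals.
Gbp2 (chr3:142620579-142620638, plus strand): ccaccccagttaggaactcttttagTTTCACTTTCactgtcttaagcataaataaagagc
Gbp3 (chr3:142559977-142560036, plus strand): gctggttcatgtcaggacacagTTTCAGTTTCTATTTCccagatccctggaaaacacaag
Gbp7 (chr3:142530258-142530317, plus strand): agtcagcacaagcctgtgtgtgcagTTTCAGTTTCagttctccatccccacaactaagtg
Irgm1 (chr11:48871421-48871480, minus strand): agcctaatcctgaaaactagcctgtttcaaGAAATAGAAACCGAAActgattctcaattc
Igtp (chr11:58199496-58199555, plus strand): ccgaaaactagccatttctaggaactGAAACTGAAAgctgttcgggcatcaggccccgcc
In the last pair, Irf1 and Irf8, the capitals mark GAS matches.
Irf1 (chr11:53769898-53769957, plus strand): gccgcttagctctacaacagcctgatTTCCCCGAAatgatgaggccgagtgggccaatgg
Irf8 (chr8:120736170-120736229, plus strand): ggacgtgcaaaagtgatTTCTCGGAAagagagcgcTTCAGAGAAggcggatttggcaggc

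ISRE letters stood in the promoters of 15 of the 26 genes (57.7%), against 3.99% of the 27025 genes with a promoter. GAS letters stood in 9 of the 26 (34.6%), against 9.55% of all genes with a promoter. Both motifs were found in 5 of the 26, and in Bst2 and Ifitm3 the matches overlap each other. ISRE letters stood in 5 of 6 gamma targets and in 4 of 6 type I targets with a promoter, so this motif did not separate the families. GAS letters stood in 3 of 6 gamma targets (Gbp7, Igtp and Irf1) and 2 of 6 type I targets (Ifit2 and Oas1a). A match is a run of letters and not a measured site.

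Hepacam itself, the targeted gene, was at 37.3, 33.4 and 35.9 RPKM in control and 24.4, 22.6 and 20.9 RPKM in knockdown libraries. Every knockdown library was lower, and Hepacam had a log2(RPKM + 1) change of -0.63 (SE 0.07, limma adjusted p = 0.00924). The call was lost in 1 of the leave-one-out fits, without shControl replicate 3 (limma adjusted p = 0.0526). Depth worked out from the RPKM steps was 14903196 to 17341840 reads per library. Hippocampal neuron markers summed to 1261 to 1284 RPKM in shControl and 947 to 1048 RPKM in shHepaCAM. Camk2a and Slc17a7, which make up most of that sum, fell, while the log2 change was above 0 for 3 of the 6 (Prox1, Wfs1 and Neurod2) and -0.40 for Neurod6, none of these 4 passing. Without shControl replicates 1, 2 and 3 in turn, the limma adjusted p was 0.125, 0.146 and 0.132 for Camk2a. For Slc17a7 it was 0.0742, 0.104 and 0.117. In whole tissue, fewer cells of a type and less RNA per cell cannot be told apart.

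All 34 genes had a higher mean log2 level in the knockdown libraries (33 with median scaling, where Ddx58 turned to -0.026), and 12 of them rose past the test. The test was limma on log2(RPKM + 1) over the 13864 genes averaging 1 RPKM or more, with a Benjamini-Hochberg adjusted p under 0.05 counted as a call, and all 34 genes had that level. Zbp1 reached it only through the knockdown group, with a control mean of 0.802 RPKM. Those called were Oas1a, Gbp2, Gbp3, Irgm1, Igtp, Irf1, Irf8, Irf9, Usp18, Rsad2, Rtp4 and Ifitm3, and 0 fell. Among all genes tested, 6.07% were called, 4.23% higher and 1.84% lower; with each library scaled to its own median these were 336 higher (2.42%) and 347 lower genes, in place of 587 and 255. The median log2 change of the 34 genes was 0.55, against 0.049 over all genes tested, where 60.4% had a change above 0. For 23 of the 34 genes every knockdown library lay above every control library, a pattern found in 20.9% of all genes tested. The changes were moderate, from 0.039 for Ddx58 to 1.03 for Igtp. On this log2(RPKM + 1) scale the change of low genes is understated. An exact permutation test of 3 libraries against 3 cannot go below p = 0.1, so the calls rest on the fit across all genes.

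**Figure D1:**
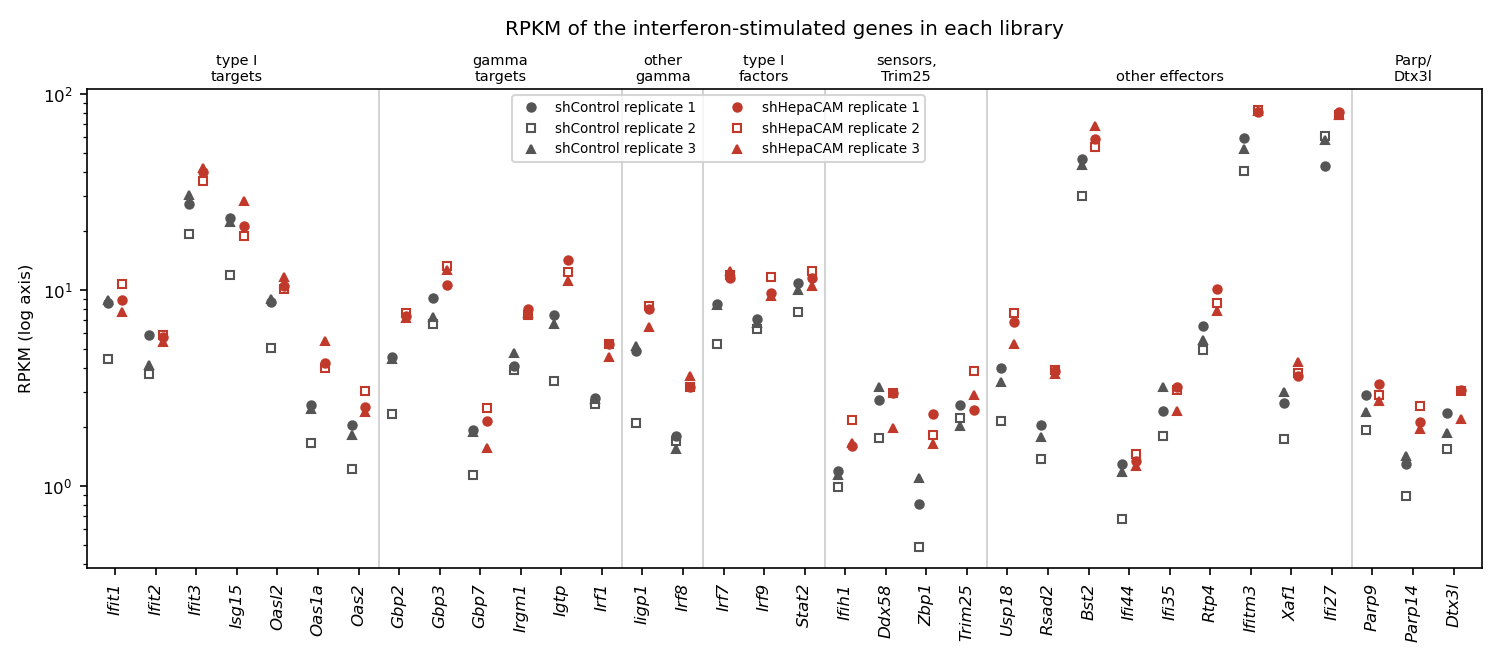
RPKM on a log axis for each of the 34 genes, in the 3 shControl libraries (grey) and the 3 shHepaCAM libraries (red), ordered by role; each point is 1 library. The open grey squares, shControl replicate 2, lie lowest among the controls for 31 of the 34 genes.

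Calls depended on which libraries were in the fit. Irgm1 was called whichever of the 6 libraries was left out. Of the 12 calls, 6, 4 and 1 were kept when control libraries 1, 2 and 3 were dropped in turn, and 6, 5 and 5 when knockdown libraries 1, 2 and 3 were dropped. In limma the adjusted p of the calls lost ran from 0.0526 to 0.144, and all 12 genes had a change above 0 in each of these fits, from 0.44 to 1.21. Calls became fewer over all 13864 genes tested as well. The number called higher, 587, was 192, 98 and 75 without control libraries 1, 2 and 3. Without knockdown libraries 1, 2 and 3 it was 551, 292 and 251. With median scaling, Irgm1, Irf1, Irf8, Irf9 and Rsad2 kept the call, and the 7 others had adjusted p of 0.052 to 0.066 in limma. These 5 genes and Gbp2, Gbp3, Ifitm3, Igtp, Oas1a, Rtp4 and Usp18 were all called by limma-voom on whole reads. That fit called 19 of the 32 genes with such reads higher, against 5.31% of its 12148 genes. The others called there were Bst2, Ifi27, Ifih1, Ifit3, Irf7, Parp14 and Zbp1. With a filter at 5 RPKM, Ifi27, Ifit3 and Irf7 were called as well.

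One control library stood apart for these genes. Of the 34 genes, shControl replicate 2 was the lowest control library for 31, replicate 3 for 2 (Irf8 and Trim25) and replicate 1 for 1 (Ifi27); over all genes tested, replicate 2 was lowest for 35.3%. The median deviation of the 34 genes from the control mean was 0.18, -0.27 and 0.12 (log2 scale) in the control libraries and 0.50, 0.58 and 0.57 in the knockdown libraries. The same medians over all genes tested lay between -0.0053 and 0.084. The median coefficient of variation among the control libraries was 22.7% for the 34 genes and 7.3% for all genes tested. By these medians the knockdown libraries were close to one another and the controls were not. Without shControl replicate 2, 32 of the 34 genes kept a change above 0, with a median of 0.43, and Isg15 and Ddx58 turned to -0.020 and -0.14. In that fit 4 of the 34 were called higher, against 0.707% of all genes tested.

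**Figure D2:**
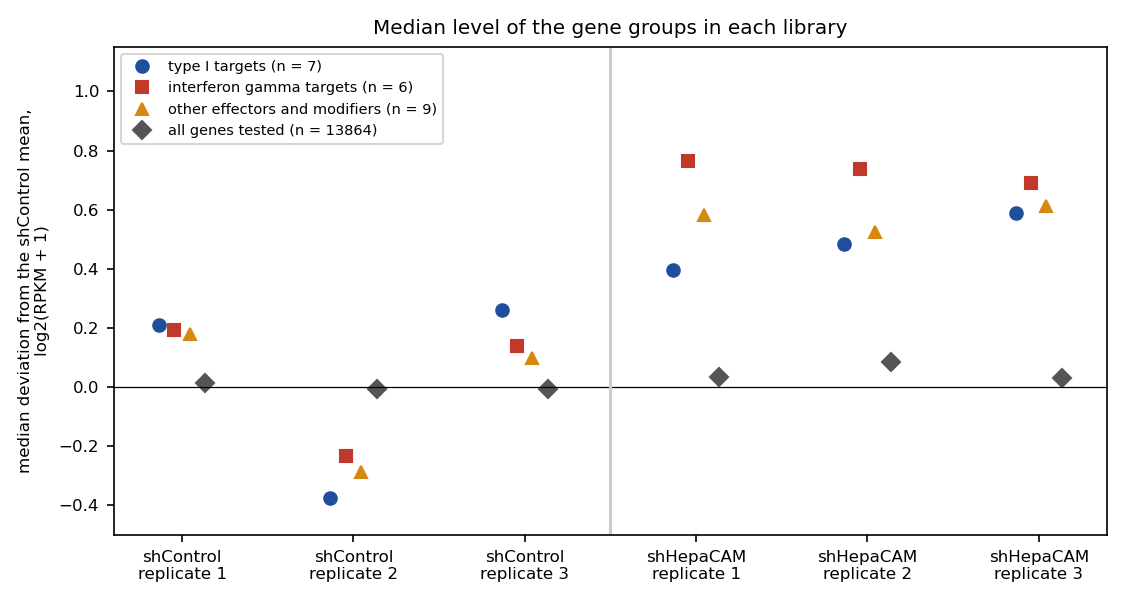
Median deviation from the shControl mean on the log2(RPKM + 1) scale (vertical axis) in each of the 6 libraries (horizontal axis), for the type I targets, the interferon gamma targets, the other effectors and all genes tested; each point is the median over the genes of the group. The interferon groups are low in shControl replicate 2, where the 13864 genes tested have a median of -0.0053.

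Type I targets were higher on average, but few passed. Of the 7 genes in this group (Ifit1, Ifit2, Ifit3, Isg15, Oasl2, Oas1a and Oas2), Oas1a rose and the other 6 did not pass the test. Among all genes tested, 4.23% were called higher. The group's median log2 change was 0.45, from 0.28 for Isg15 to 0.79 for Oas1a. Knockdown libraries lay above all control libraries for 4 of the 7, namely Ifit3, Oasl2, Oas1a and Oas2, against 20.9% of all genes tested.

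Oas1a (ENSMUSG00000052776) encodes an oligoadenylate synthetase, which makes the second messenger that activates the RNA-degrading enzyme RNase L. It was at 2.57, 1.65 and 2.46 RPKM in control and 4.23, 3.98 and 5.47 RPKM in knockdown libraries. All 3 knockdown values lay above the highest control value, with a change of 0.79 on the log2 scale (SE 0.15, limma adjusted p = 0.033). The call was lost whichever of the 6 libraries was left out, with limma adjusted p of 0.0548 to 0.0996. Reads of Oas1a and its near-identical relative Oas1g can be confused. Oas2, a larger synthetase, was at 2.04, 1.22 and 1.82 RPKM in control and 2.51, 3.05 and 2.39 RPKM in knockdown libraries (log2 change 0.45, limma adjusted p = 0.121). Oasl2, an OAS-like protein that carries ubiquitin-like domains, was at 8.67, 5.02 and 9.0 RPKM in control and 10.5, 10.1 and 11.5 RPKM in knockdown libraries. Both sets separate without overlap, and shControl replicate 2 was the lowest library in both; without it the change of Oasl2 went from 0.49 to 0.25.

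The Ifit genes, whose proteins bind foreign RNA and block its translation, differed among themselves. Ifit3 (ENSMUSG00000074896) was the most abundant type I target, at 27.4, 19.3 and 30.6 RPKM in control and 39.7, 35.8 and 41.8 RPKM in knockdown libraries. The groups did not overlap, and the change of 0.61 (log2, SE 0.16) missed the threshold with a limma adjusted p of 0.0713. Of 16 alternatives, 2 called Ifit3, the filter at 5 RPKM and limma-voom. Ifit3 shares sequence with Ifit3b, so the division of reads between them is uncertain. Ifit1 was at 8.58, 4.43 and 8.87 RPKM in control and 8.83, 10.6 and 7.74 RPKM in knockdown libraries, so that 2 of the 3 control values lay within the knockdown range. Ifit2 was at 5.88, 3.70 and 4.13 RPKM in control and 5.75, 5.87 and 5.44 RPKM in knockdown libraries, where shControl replicate 1 was level with the highest knockdown value. The changes of Ifit1 and Ifit2 were 0.32 and 0.28 with limma adjusted p of 0.442 and 0.269, and without shControl replicate 2 they were 0.041 and 0.17.

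Isg15 (ENSMUSG00000035692), a ubiquitin-like protein that is attached to other proteins in infected cells, did not separate the groups. It was at 23.3, 11.8 and 22.3 RPKM in control and 21.2, 18.9 and 28.4 RPKM in knockdown libraries. Only shControl replicate 2 was below the knockdown range. The log2 change was 0.28 (SE 0.26, limma adjusted p = 0.55), with a 95% interval from -0.33 to 0.89, and -0.020 without shControl replicate 2. Its promoter stretch above holds 3 overlapping ISRE matches, the largest number among the 12 shown.

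Interferon gamma targets passed more often. Of the 6 genes Gbp2, Gbp3, Gbp7, Irgm1, Igtp and Irf1, 5 rose, Gbp7 did not pass and 0 fell. Over all genes tested, 4.23% were called higher. Of the 5 calls, 1 to 3 were kept with single libraries left out, and 2 with median scaling. The median log2 change was 0.71. It was 0.64 without shControl replicate 2, where that of the type I targets was 0.25. Whether the gamma targets differ from the type I targets was not tested. In each knockdown library the median deviation from the control mean was larger for the gamma targets (0.76, 0.74 and 0.69 in replicates 1, 2 and 3) than for the type I targets (0.40, 0.48 and 0.59).

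Irgm1 (ENSMUSG00000046879), a GTPase that guards vacuoles and autophagy, had the smallest adjusted p of the 34 genes. It was at 4.10, 3.90 and 4.78 RPKM in control and 7.97, 7.47 and 7.59 RPKM in knockdown libraries. The control and knockdown values stood well apart, and the change on the log2 scale was 0.72 (SE 0.08; limma adjusted p = 0.00901). Over the 16 alternatives its adjusted p ran from 0.00273 to 0.0743. It lost the call in 1 of them, with both shControl replicate 1 and shHepaCAM replicate 3 left out. Irf1 (ENSMUSG00000018899), the transcription factor that carries the gamma signal on to further targets, was at 2.79, 2.62 and 2.78 RPKM in control and 5.30, 5.30 and 4.54 RPKM in knockdown libraries. Its control values were nearly level, shControl replicate 2 included, and the log2 change was 0.69 (SE 0.09, limma adjusted p = 0.00924). The adjusted p of Irf1 in limma was 0.053 without shControl replicate 2 and 0.0526 without shControl replicate 3.

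Igtp (ENSMUSG00000078853), an immunity-related GTPase that acts on pathogen-containing vacuoles, had the largest log2 change of the 34 on the log2(RPKM + 1) scale; with a pseudocount of 0.1 Zbp1 exceeded it (1.21), as in limma-voom (1.33 against 1.18). It was at 7.46, 3.42 and 6.67 RPKM in control and 14.2, 12.3 and 11.1 RPKM in knockdown libraries, a ratio of group means of 2.14. The groups did not overlap; the log2 change was 1.03 (SE 0.23) and the limma adjusted p 0.0496, just inside the threshold. With single libraries left out its adjusted p was 0.0561 to 0.122. Exons of Igtp overlap those of Irgm2 on the same strand in the annotation, so their reads cannot be fully told apart.

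The guanylate-binding proteins are large GTPases that attack pathogen membranes. Gbp2 (ENSMUSG00000028270) was at 4.53, 2.34 and 4.43 RPKM in control and 7.36, 7.59 and 7.20 RPKM in knockdown libraries, differing by 0.85 on the log2 scale (SE 0.19; limma adjusted p = 0.0467). Gbp3 (ENSMUSG00000028268) was at 9.06, 6.68 and 7.25 RPKM in control and 10.6, 13.2 and 12.7 RPKM in knockdown libraries, differing by 0.61 on the log2 scale (SE 0.12; limma adjusted p = 0.0373). Neither gene's groups overlapped. Gbp7 was at 1.93, 1.13 and 1.89 RPKM in control and 2.15, 2.49 and 1.57 RPKM in knockdown libraries. Its groups overlapped and its change of 0.22 did not pass (limma adjusted p = 0.487); its promoter stretch holds 1 ISRE match, whose letters are the first of the 2 overlapping matches of Gbp3. Gbp2 was called without shControl replicate 2 and lost the call when any other library was left out, with limma adjusted p of 0.0683 to 0.119. Gbp3 was called without shControl replicate 1 or shHepaCAM replicate 1 and lost the call when any of the other 4 was left out, with limma adjusted p of 0.097 to 0.132. Members of the family share sequence, so reads may be split between them.

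Another pair responds to interferon gamma. Irf8 (ENSMUSG00000041515), a factor needed for microglia and other myeloid cells, was at 1.80, 1.68 and 1.54 RPKM in control and 3.20, 3.19 and 3.62 RPKM in knockdown libraries. As with Irf1, the controls were even, and the log2 change was 0.70 (SE 0.09, limma adjusted p = 0.0137). Its limma adjusted p was 0.0625 and 0.0651 without shControl replicates 2 and 3. Iigp1, a GTPase relative of Igtp, was at 4.85, 2.09 and 5.14 RPKM in control and 7.94, 8.22 and 6.43 RPKM in knockdown libraries. Its groups were apart but its controls were uneven, and the log2 change of 0.82 (SE 0.26) did not pass (limma adjusted p = 0.108).

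**Figure D3:**
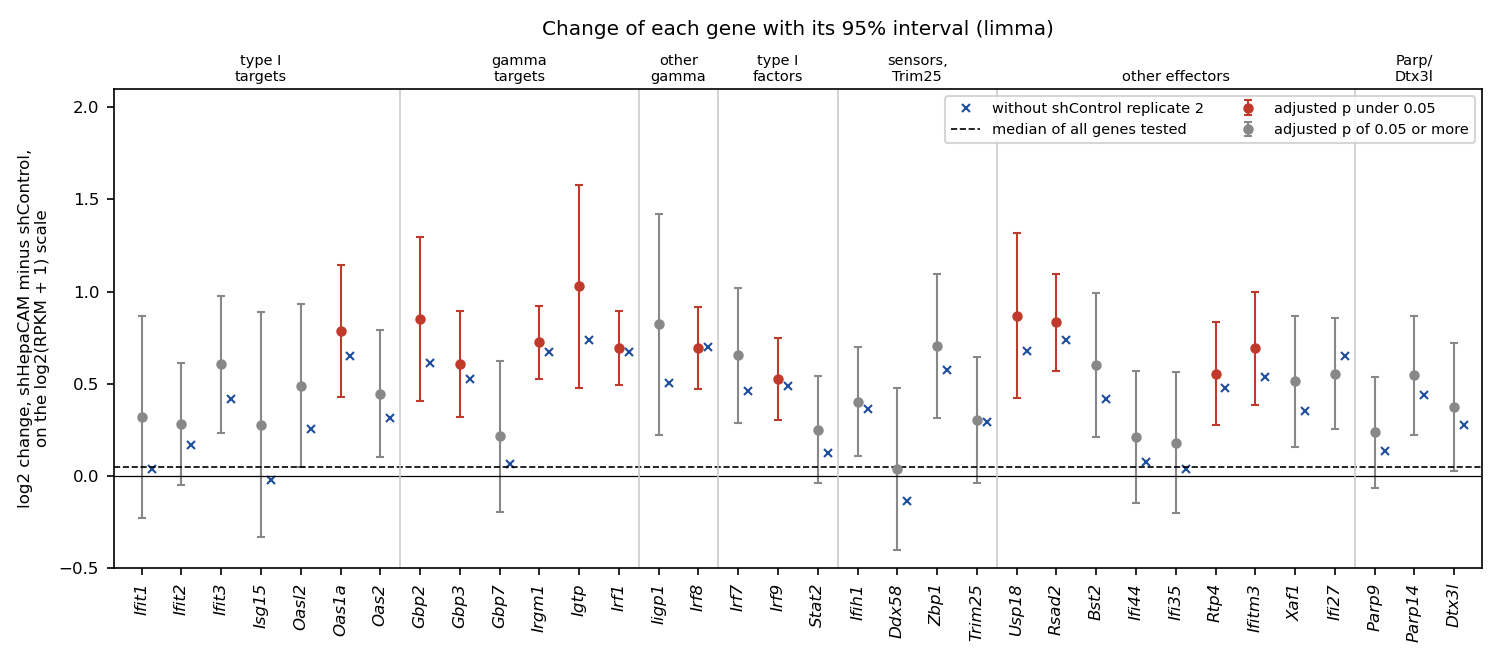
Log2 change of each of the 34 genes (shHepaCAM minus shControl, log2(RPKM + 1) scale) with its 95% interval from limma; red points are called, grey points are not, blue crosses leave out shControl replicate 2, and the dashed line is the median of all genes tested, 0.049. Blue crosses lie below the full change for most genes, while Irf1, Irf8 and Irgm1 change little.

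Among the factors of type I signalling, Irf9 rose and Irf7 and Stat2 did not pass. Irf9 (ENSMUSG00000002325), the DNA-binding subunit that recognises the ISRE, was at 7.13, 6.32 and 6.74 RPKM in control and 9.61, 11.6 and 9.27 RPKM in knockdown libraries (log2 change 0.53, SE 0.10, limma adjusted p = 0.028). The limma adjusted p of Irf9 was 0.0658, 0.107 and 0.108 without shControl replicates 1, 2 and 3. Exons of Irf9 overlap those of Rnf31 on the same strand. Irf7, the factor that amplifies type I interferon production, was at 8.44, 5.28 and 8.33 RPKM in control and 11.5, 11.9 and 12.5 RPKM in knockdown libraries. The groups were apart, and the log2 change of 0.66 had a limma adjusted p of 0.055. Irf7 overlaps exons of Phrf1 on the other strand, and the labels leave the strand setting of the counting unstated. Stat2, the partner of Irf9, was at 10.9, 7.73 and 9.93 RPKM in control and 11.5, 12.4 and 10.5 RPKM in knockdown libraries, with overlapping groups (log2 change 0.25, limma adjusted p = 0.258).

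None of the 4 sensors and sensor-linked genes passed in limma, although 2 of the 4 had an unadjusted p under 0.05 and limma-voom called the same number. Zbp1, a sensor of Z-form nucleic acids that can trigger cell death, had a ratio of group means of 2.40, the largest of the 34, on a low control level. It was at 0.811, 0.490 and 1.10 RPKM in control and 2.31, 1.81 and 1.64 RPKM in knockdown libraries (log2 change 0.70, limma adjusted p = 0.0544). This was also the gene with the fewest reads, 30 to 58 in control and 95 to 129 in knockdown libraries. Ifih1, the cytoplasmic RNA sensor MDA5, was at 1.20, 0.989 and 1.14 RPKM in control and 1.60, 2.16 and 1.64 RPKM in knockdown libraries (log2 change 0.40, limma adjusted p = 0.107). Its partner sensor Ddx58, also called RIG-I, was at 2.74, 1.76 and 3.20 RPKM in control and 2.96, 2.97 and 1.98 RPKM in knockdown libraries. The groups lay on top of each other, and the change of Ddx58 was 0.039 with a 95% interval from -0.40 to 0.48; it turned to -0.026 with median scaling and -0.055 with quantile normalization. Trim25, the ubiquitin ligase that assists Ddx58, had a change of 0.30 with overlapping groups (limma adjusted p = 0.25).

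Of the 9 other effectors and modifiers, 4 rose, 5 did not pass and 0 fell, and the median log2 change was 0.56. The share called higher over all genes tested was 4.23%. Rsad2 (ENSMUSG00000020641) encodes viperin, an enzyme that makes a chain-terminating nucleotide against viral RNA synthesis. It was at 2.04, 1.37 and 1.76 RPKM in control and 3.85, 3.92 and 3.73 RPKM in knockdown libraries. The knockdown values were nearly level, and the log2 change was 0.83 (SE 0.11, limma adjusted p = 0.013). Without shControl replicate 3 the adjusted p was 0.0606 in limma. Usp18, which removes Isg15 from proteins and damps type I receptor signalling, was at 4.0, 2.15 and 3.39 RPKM in control and 6.82, 7.60 and 5.27 RPKM in knockdown libraries (log2 change 0.87, limma adjusted p = 0.0453). Rtp4, a receptor transporter protein, was at 6.53, 4.92 and 5.51 RPKM in control and 10.1, 8.52 and 7.76 RPKM in knockdown libraries (log2 change 0.56, limma adjusted p = 0.0431). Both sets were apart, and both genes lost the call whichever library was left out, with limma adjusted p of 0.0592 to 0.144.

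Ifi27, Ifitm3 and Bst2 had the highest RPKM of the 34 genes in control libraries. Ifitm3 (ENSMUSG00000025492), which blocks the fusion of virus with endosomes, was at 59.6, 40.1 and 52.2 RPKM in control and 80.6, 82.1 and 81.6 RPKM in knockdown libraries. Its knockdown values lay within 2 RPKM of each other and above every control (log2 change 0.69, SE 0.13, limma adjusted p = 0.0308). Its limma adjusted p was 0.107 without shControl replicate 3 and 0.057, 0.0817 and 0.0788 without shHepaCAM replicates 1, 2 and 3. Bst2, or tetherin, which holds budding virus at the cell surface, was at 46.2, 29.9 and 43.1 RPKM in control and 58.6, 53.7 and 68.2 RPKM in knockdown libraries (log2 change 0.60, limma adjusted p = 0.0812). Ifi27, a small hydrophobic protein, was at 42.5, 60.8 and 58.3 RPKM in control and 80.2, 78.1 and 77.8 RPKM in knockdown libraries, with a log2 change of 0.56 and a limma adjusted p of 0.0503. Unlike the rest, Ifi27 was lowest in shControl replicate 1, and without shControl replicate 2 its change was 0.65.

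The remaining effectors were low. Xaf1, a protein that promotes cell death, was at 2.63, 1.73 and 3.01 RPKM in control and 3.61, 3.74 and 4.30 RPKM in knockdown libraries (log2 change 0.51, limma adjusted p = 0.0944). Ifi44 and Ifi35 had group means of 1.05 and 2.46 RPKM in control and 1.35 and 2.89 RPKM in knockdown libraries. Their groups overlapped, and their log2 changes of 0.21 and 0.18 did not pass.

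Parp9, Parp14 and Dtx3l act together in ADP-ribosylation and ubiquitination at interferon-induced genes, and none of these 3 passed in limma. The unadjusted p was under 0.05 for 2 of the 3, and limma-voom called Parp14. Parp14 was at 1.29, 0.892 and 1.41 RPKM in control and 2.11, 2.55 and 1.95 RPKM in knockdown libraries, without overlap (log2 change 0.55, limma adjusted p = 0.0642). Parp9 and its binding partner Dtx3l had log2 changes of 0.24 and 0.37 and overlapping groups. Exons of Parp9 and Dtx3l overlap on opposite strands, so without a known strand setting their reads cannot be fully told apart.

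Calls were spread over genes with and without these promoter letters. Of the 15 genes with ISRE letters, 7 were called higher, with a median log2 change of 0.61, and of the 11 without, 3 were called, with a median of 0.49. Of the 9 genes with GAS letters, 5 were called, with a median of 0.69, and of the 17 without, 5 were called, with a median of 0.49. These are counts with no test, and over all genes tested 4.23% were called higher.

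Interferon targets outside the list were also counted. Of 26 other type I targets 23 were tested, 3 of them with a control mean below 1 RPKM; 5 rose and 0 fell: Oas1b, Uba7, Lgals3bp, Ifi27l2a and Slfn8, by 1.06, 0.69, 0.71, 0.48 and 0.75. Of 14 other gamma targets 9 were tested, and 4 rose and 0 fell: the GTPases Ifi47, Irgm2 and Gbp9 by 1.08, 1.04 and 0.80, and Socs1, a feedback inhibitor of interferon signalling, by 0.72. Ifi47, Socs1 and 2 more of the 9 had control means below 1 RPKM and passed the filter only through the knockdown group. The count was thus partly set by the filter. Exons of Irgm2 overlap those of Igtp on the same strand, so the calls of both genes may share reads. Over all genes tested, 4.23% were called higher. Ifi47 was at 1.16, 0.909 and 0.841 RPKM in control and 3.45, 3.41 and 2.62 RPKM in knockdown libraries. Lgals3bp, a secreted glycoprotein, was at 43.5, 38.5 and 44.1 RPKM in control and 66.4, 71.5 and 70.1 RPKM in knockdown libraries. Neither gene's groups overlapped, and both were called in limma whichever library was left out. These lists were written with earlier results of the data known.

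Signalling genes upstream were counted too, where 4.23% of all genes tested were called higher and 1.84% lower. Of 8 receptors and kinases tested, 0 rose and Ifngr2, a chain of the interferon gamma receptor, fell by 0.49. Ifngr2 was at 18.7, 18.2 and 19.4 RPKM in control and 14.6, 11.4 and 13.6 RPKM in knockdown libraries. The other chain of that receptor, Ifngr1, went the other way without passing (log2 change 0.28, limma adjusted p = 0.0813). Every knockdown library lay above every control library for Ifngr1. The type I receptor chains Ifnar1 and Ifnar2 had log2 changes of 0.020 and 0.11, of which that of Ifnar1 turned below 0 (-0.058) with median scaling. Among 5 brakes on the pathway, Socs1 and the phosphatase Ptpn6, which is common in blood-derived cells and microglia, rose by 0.72 and 0.89. Of 10 genes that switch on interferon production, the factor Irf5 and the DNA-sensing adaptor Tmem173 (STING) rose by 0.59 and 0.65, and 0 fell. Interferon genes themselves were not analysed here. Of the 13 genes named in this and the preceding paragraph as called, 7, 2 and 2 stayed called when control libraries 1, 2 and 3 were dropped in turn and 11, 6 and 7 when knockdown libraries 1, 2 and 3 were dropped; the limma adjusted p of the calls lost ran from 0.0512 to 0.15.

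Summed markers of immune cells were higher in the same knockdown libraries. The 8 microglia markers summed to 205 to 247 RPKM in shControl and 360 to 447 RPKM in shHepaCAM. Of the 8, 4 rose (Cx3cr1, Aif1, Csf1r and C1qa), against 4.23% called higher over all genes tested. All 4 lost the call without shControl replicate 2 and without shControl replicate 3, with limma adjusted p of 0.0585 to 0.099. C1qa alone made up 116 to 141 RPKM of the sum in control and 222 to 308 RPKM in knockdown libraries, while P2ry12 and Tmem119 had log2 changes of 0.15 and 0.21 and did not pass. Markers of T and NK cells, 9 in number, summed to 1.31 to 2.46 and 5.91 to 9.43 RPKM. Only Trac was tested, and it passed the filter through the knockdown group alone. The B and plasma cell markers summed to 3.45 to 6.45 and 510 to 1830 RPKM, of which Igkc, the kappa light chain constant region, made up 489 to 1735 RPKM in the knockdown libraries. The 3 others tested (Cd79a, Jchain and Mzb1) had control means below 1 RPKM and passed the filter only through the knockdown group, where Jchain reached 78.5 RPKM. Blood-derived and border myeloid markers, 7 in number, summed to 4.16 to 8.17 and 10.2 to 17.5 RPKM. Ly6c2, below 1 RPKM in control, made up 2.98, 4.41 and 14.1 RPKM of the knockdown sums, and S100a8 and S100a9 had log2 changes of -0.52 and -0.13, neither past the test. None of the markers was at 0 in all 6 libraries. The part of these cells in the changes of interferon-stimulated genes was not tested. In shControl replicate 2, where the interferon-stimulated genes were low, the microglia markers summed to 214 RPKM, mostly C1qa, between the 247 and 205 RPKM of shControl replicates 1 and 3.

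Choroid plexus markers summed to 67.7, 4271 and 3671 RPKM in control and 2321, 1691 and 29.3 RPKM in knockdown libraries. With log2 Ttr, a choroid plexus transcript, as a covariate, 9 of the 34 genes were called, 8 of them among the 12. That fit called 445 of all 13864 genes tested higher. With both libraries low in these markers, shControl replicate 1 and shHepaCAM replicate 3, left out, 0 of the 34 passed in limma and 26 had an unadjusted p under 0.05. Few genes of any kind passed there, with 91 of 13864 called higher and 13 lower. The median log2 change of the 34 genes was 0.62 and all 34 changes were above 0.

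**Figure D4:**
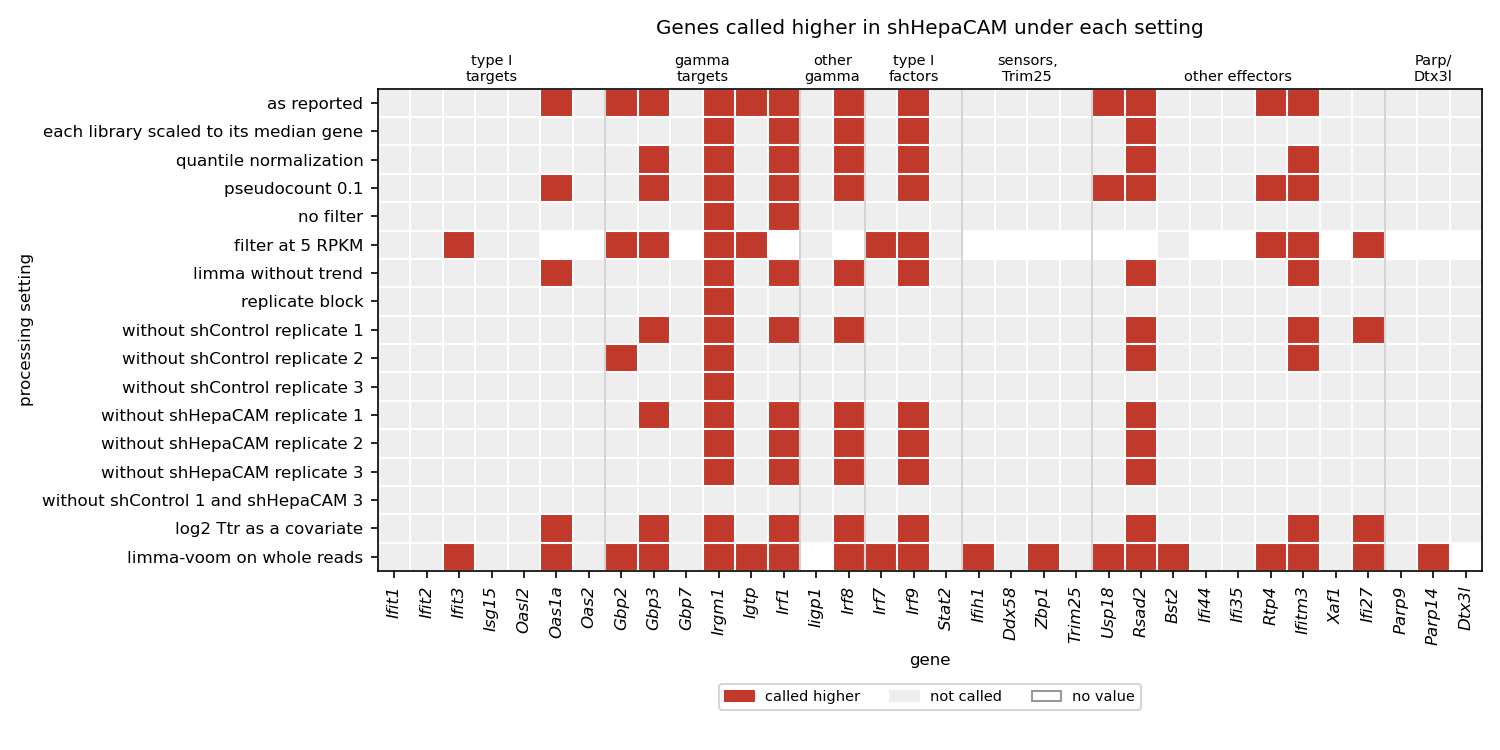
Genes called higher in shHepaCAM (red), not called (light grey) or without a value (white), for the 34 genes (horizontal axis) under each processing setting (vertical axis). Irgm1 is called in all settings but the one that leaves out both libraries low in choroid plexus markers.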

How the data were processed

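RNA sequencing of 3 shControl and 3 shHepaCAM hippocampus libraries was deposited by the authors as RPKM, 1 file per library. Per the submitters' processing notes, TopHat2 2.0.12, Bowtie2 2.0.6 and build mm39 were used; these sources leave the read counter, the annotation and whether counting used strand unstated. GENCODE M21, on another build, gave symbols for 29805 of 29872 genes, exon lengths and overlaps. Where RPKM times exon length came out as whole reads within 0.01 in every library (91.9% of genes with a length), those reads were used for depth and limma-voom; 32 of the 34 members had them.

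Groups were compared by limma 3.58.1 (R 4.3.3, trend on) on log2(RPKM + 1), for genes averaging 1 RPKM or more, without a block. It was also run on simulated reads with the same spread set for every gene. That run gives no error rate for the 34 genes, whose median control variation was above that of all genes tested. The members, lists and tests were chosen with earlier results of these data known. All members were named, with the called genes of other pathway lists (at most 6 each). Alternatives were other scalings, a pseudocount of 0.1, no filter, a filter at 5 RPKM, no trend, a replicate block, left-out libraries, log2 Ttr as a covariate and limma-voom. Figures used matplotlib 3.10.9.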

Additional observations from a re-analysis of the deposited data

How the results depend on the processing

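The number of members called, 12, was 5 with median scaling, 7 under quantile normalization, 2 with no filter, 7 with limma without trend, 1 with the replicate block, 0 without both shControl replicate 1 and shHepaCAM replicate 3, and 19 with limma-voom; with single libraries left out it was 1 to 7. The count of type I targets, 1, was 0 with median scaling, quantile normalization, no filter, the replicate block and both libraries left out, 2 with limma-voom and 0 with each single library left out. The count of gamma targets, 5, was 2 with median scaling, 3 with quantile normalization, 3 with a pseudocount of 0.1, 2 with no filter, 2 with limma without trend, 1 with the replicate block, 0 without both libraries, 3 with log2 Ttr as a covariate, and 1 to 3 with single libraries left out. For these 3 groups, counts under the alternatives not named here were within 1.5 times. The change of Ddx58 turned to -0.026 with median scaling and -0.055 under quantile normalization, and ran from -0.14 to 0.18 with single libraries left out, below 0 without shControl replicate 2 (-0.14), without shHepaCAM replicate 1 (-0.029) or without shHepaCAM replicate 2 (-0.031); without both libraries named above it was 0.22. That of Isg15 ran from -0.020 without shControl replicate 2 to 0.44 without shControl replicate 1. The cause of these shifts was not tested, except that no filter tests more genes and left-out libraries leave fewer samples. Over all genes, 587 of 13864 were called higher in the main fit. That number was 112 of 13864 with the replicate block and 121 of 29872 with no filter. Deviations of same-numbered libraries from their group means had r across genes of -0.21, 0.015 and -0.14. The highest r, 0.27, was between shControl replicate 1 and shHepaCAM replicate 3, both low in choroid plexus markers. Deviations of 3 libraries from their mean sum to 0, so these values cannot settle whether same-numbered libraries were paired. Depth limits the lowest genes, such as Zbp1 at 30 reads.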
